A study of Mus musculus with 2 samples.

Results

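Among adherent GL261 cells, 505 of 5051 cells that passed the cell filter carried the highest summed level of Mt3, Slc47a1, Slc30a4, Gadd45a and Vgf. These cells were chosen by the counts of those 5 genes alone: the unique molecular identifiers (UMIs, 1 per captured transcript) of the 5 genes were summed and divided by the UMIs of the cell, and the top 10% of cells by this score were taken as members. The 2526 cells in the bottom 50% by score served as the comparison, and 2020 cells lay between. The series held 10715 called cells, of which 5764 were adherent and 4951 were neurosphere cells.

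GL261 is a mouse glioma line derived from C57BL/6 mice, and both cultures were grown from it. The adherent phenotype was kept in DMEM with 10% fetal bovine serum and harvested by trypsin before the dish was full. The neurosphere phenotype was kept in medium to which EGF (20 ng/mL), FGF (20 ng/mL) and B-27 had been added, and was harvested on day 12. Each phenotype was 1 droplet library of cells that had been frozen before library preparation, so all values describe 1 line, 1 culture of each kind and no other animal or clone. The groups of cells below come from 1 library, cells are not replicates, and no test between them was made. Intervals are 95% intervals for counting error only.

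Metallothioneins are small cysteine-rich proteins that hold zinc and copper, and Mt3 is the member best known from the brain. Slc30a4 (ZnT4) moves zinc out of the cytosol into vesicles, and Slc47a1 (MATE1) is a proton-coupled exporter of organic cations. Gadd45a is a stress gene and a target of p53 that acts in growth arrest and DNA repair, and Vgf is a secreted precursor of neuropeptides that growth factors induce. Metallothionein genes are known to be switched on through metal response elements, short DNA motifs bound by the zinc sensor MTF1, and many lysosomal genes carry E-box motifs bound by TFEB and related factors.

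The 5 score genes lie on 5 chromosomes (GRCm38, GENCODE M21). Mt3 is at chr8:94152607-94154146 on the plus strand, 18518 bases from Mt2 in the metallothionein cluster. Slc47a1 is at chr11:61343401-61378345 on the minus strand, 541 bases from its close relative Slc47a2, which has the same orientation. Slc30a4 is at chr2:122681233-122702663 on the minus strand and 40042 bases from AA467197. Vgf is at chr5:137026392-137033351 on the plus strand. Gadd45a is at chr6:67035096-67037457 on the minus strand and touches E230016M11Rik, a gene on the other strand with a log2 ratio of 0.60 between members and bottom cells. Whether reads were counted by strand is not given in the sources used here.

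Promoters were shown for a pair of zinc-handling genes that chose the cells and for Mt2, a neighbour of Mt3 that did not. Each is the 250 bases before the RefSeq transcript start on GRCm38.p6, written 5′ to 3′ on the strand of the gene. Capitals mark the letters of a metal response element (TGCGCNC or TGCACNC, either strand). The windows are chr8:94152357-94152606 (plus) for Mt3, chr8:94172368-94172617 (plus) for Mt2 and chr2:122702664-122702913 (minus) for Slc30a4.
Mt3: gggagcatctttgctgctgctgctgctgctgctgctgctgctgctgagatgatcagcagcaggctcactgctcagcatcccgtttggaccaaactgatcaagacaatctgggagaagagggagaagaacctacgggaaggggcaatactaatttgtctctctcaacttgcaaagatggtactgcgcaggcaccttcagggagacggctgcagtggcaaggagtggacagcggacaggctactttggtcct
Mt2: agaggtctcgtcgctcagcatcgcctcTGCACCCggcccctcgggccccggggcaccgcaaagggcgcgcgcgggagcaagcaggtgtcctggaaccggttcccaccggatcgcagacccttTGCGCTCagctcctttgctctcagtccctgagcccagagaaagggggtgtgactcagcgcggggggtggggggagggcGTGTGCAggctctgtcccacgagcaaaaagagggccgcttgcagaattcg
Slc30a4: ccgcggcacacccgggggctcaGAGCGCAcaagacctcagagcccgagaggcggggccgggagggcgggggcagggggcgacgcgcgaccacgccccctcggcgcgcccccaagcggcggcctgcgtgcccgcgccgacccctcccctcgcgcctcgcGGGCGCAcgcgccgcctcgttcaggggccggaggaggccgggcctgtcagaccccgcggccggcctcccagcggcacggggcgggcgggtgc
The Mt2 window held 3 such motifs and the Slc30a4 window 2, while the Mt3 window held 0. Of the 5 score genes, 3 had a promoter in the RefSeq table, and 1 of them held the motif. It stood in 23.8% of all promoters, in 35.3% of those of the genes measured here, and in 39.9% of those of the genes higher in members. A match of letters is a description and not a site of binding.

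The score itself formed a continuous range. The last member had 12.9383 score UMIs per 10000 UMIs (10 of 7729 UMIs) and the first cell outside had 12.9318 (7 of 5413), so no gap separated members from their neighbours in rank. The 5th cell inside was at 12.98 and the 5th outside at 12.88. Members had a median of 18.3 per 10000 (quartiles 15.2 and 23.8, highest 179.1), against 6.44 in the cells between and 1.74 in the bottom 50%, where 578 cells were at 0. In whole molecules the median member held 15 score UMIs (3 to 133) and the median bottom cell 1.

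**Figure D1:**
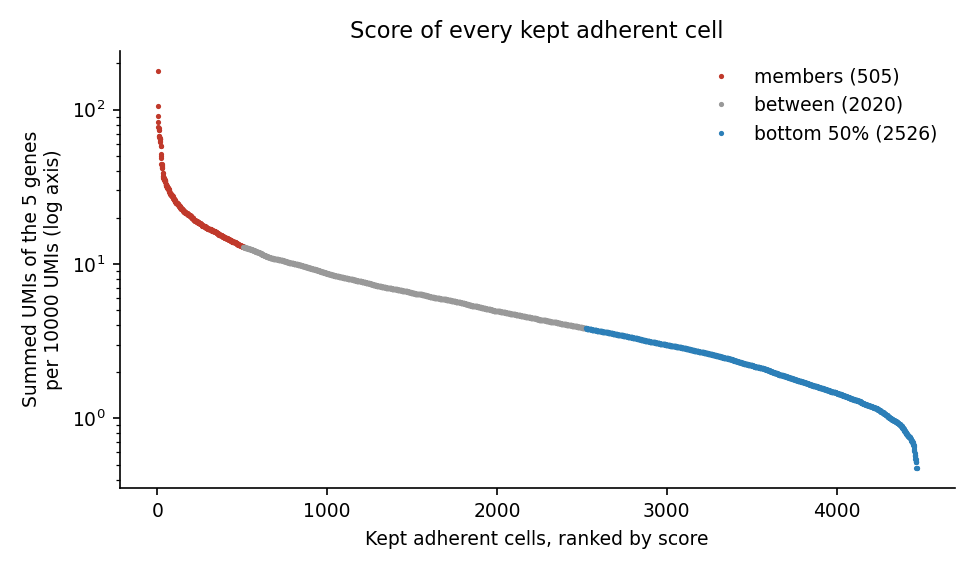
Summed UMIs of the 5 genes per 10000 UMIs of the cell (log axis) against rank, 1 point per kept adherent cell, with cells at 0 not drawn. The curve falls from 179.1 without a gap at the 12.94 per 10000 that bounds the 505 members.

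Depth differed little between the groups. Members had a median of 7700 UMIs and 2923 genes per cell, and bottom cells 8390 UMIs and 3057 genes. The mitochondrial share was 2.00% against 2.02% and the ribosomal share 30.2% against 29.3%. Shallow cells gave more members: of 4 equal groups of cells by UMIs, the shallowest held 12.1% members and the deepest 8.31%. Cells over the 95th percentile of UMIs made up 3.56% of members and 4.99% of bottom cells. Of 12 barcodes found in both libraries, 2 were members.

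Mt3 supplied the largest share of the score and had the widest range. Its level was 895 CPM (UMIs per 1000000 UMIs of the group, interval 867 to 924) in members, 156 in the cells between and 36.9 in the bottom 50%. In single members Mt3 ran from 0 through a median of 4.66 to 136 UMIs per 10000, and 1 cell held 111 Mt3 molecules. The 505 members carried 50.5% of all Mt3 UMIs of the kept adherent cells. These values chose the cells and are given as a description.

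Vgf followed in contrast. Members had 300.1 CPM of Vgf (284 to 317), the cells between 83.3 and the bottom 50% 14.7, and members carried 40.4% of the gene's UMIs. The median member had 0.702 Vgf UMIs per 10000 and the highest 60.2, so its level differed widely among members. Slc47a1 was at 423 CPM (403 to 443) in members against 53 in the bottom 50%, and Gadd45a at 413 (394 to 432) against 60.1. Slc30a4, the least counted of the 5, was at 146 CPM (135 to 158) against 18.1.

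**Figure D2:**
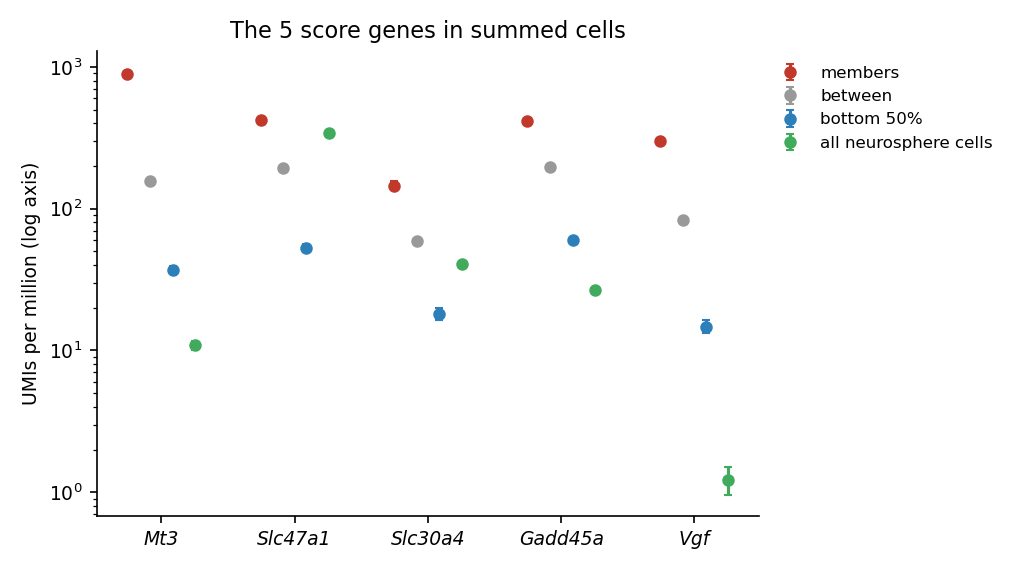
Level of the 5 score genes in CPM (log axis) in the summed cells of each group, with 95% counting intervals. Members stand above the cells between and the bottom 50% for every gene because these genes chose them, and neurosphere cells lie from 342 (Slc47a1) to 1.22 (Vgf).

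Detection was compared after every cell had been thinned to 5000 UMIs, which left out 79 members and 254 bottom cells that were shallower. Mt3 was then found in 77.0% of members and 14.4% of bottom cells (without thinning 77.8% and 24.3%). Gadd45a was found in 73.5% and 25.3% (83.0% and 39.7%), Slc47a1 in 72.8% and 22.9% (84.0% and 35.3%), Vgf in 46.2% and 6.56% (51.3% and 10.9%) and Slc30a4 in 43.7% and 7.57% (56.4% and 14.6%). The culture holds no cell type known to lack these genes, so the share that free RNA gives was not measured. Without thinning, 93 of 505 members (18.4%) had a UMI of all 5 genes, 180 of 4, 146 of 3, 71 of 2 and 15 of 1. With thinning 6.81% had a UMI of all 5, and a gene without a UMI may still be expressed.

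Members were split by the score gene with most UMIs in the cell, which uses the same values that chose them and is given as a description. Mt3 had the most UMIs of the 5 in 186 members (36.8%), Slc47a1 in 113 (22.4%), Gadd45a in 84 (16.6%), Vgf in 71 (14.1%) and Slc30a4 in 10 (1.98%), while 41 members (8.12%) had a tie. Mt3-led members had a median of 8839 UMIs per cell and Slc47a1-led members 6817.

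Genes that took no part in the choice differed between these subsets. Spp1, which encodes the secreted matrix protein osteopontin, was at 615 CPM in Mt3-led members, 147 in Gadd45a-led, 85.6 in Vgf-led and 37.6 in Slc47a1-led members. Mt1, the ubiquitous metallothionein, was at 4069 CPM in Mt3-led members and between 1577 and 1964 in those led by Slc47a1, Vgf and Gadd45a. The cytokine Il11 was at 214 CPM in Vgf-led, 93.9 in Mt3-led, 57.7 in Slc47a1-led and 23.7 in Gadd45a-led members. In the 10 Slc30a4-led members it was at 1024 CPM (832 to 1246), a value of few cells for a gene of which 5 members held 31.4% of the UMIs. Hmox1, the heme-degrading enzyme of the oxidative stress response, was at 515 CPM in Gadd45a-led, 352 in Mt3-led, 281 in Slc47a1-led and 120 in Vgf-led members. In the 10 Slc30a4-led members Hmox1 was at 93.1 CPM (42.6 to 177).

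Each score gene was also measured in cells that the other 4 genes had chosen. The level of Mt3 was then 472 CPM in the top 10% against 93.6 in the bottom 50%, a log2 ratio of 2.33 (2.24 to 2.43). Slc30a4 had a log2 ratio of 2.03 (1.85 to 2.20), Vgf 2.03 (1.89 to 2.17), Gadd45a 1.22 (1.12 to 1.32) and Slc47a1 1.11 (1.01 to 1.21). All 5 genes were higher in cells the others chose, with Mt3, Slc30a4 and Vgf further apart than Gadd45a and Slc47a1. Cells chosen without Mt3 still held 71.3% of the members, and those chosen without Slc30a4 held 92.1%. The 5 genes were chosen with earlier results of these data known, so these ratios are a description.

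A choice made on a random part of each cell's UMIs and read in the rest kept 390 of the 505 members (77.2%). In the molecules that had not been used, the log2 ratio was 3.86 for Mt3, 3.24 for Vgf, 2.14 for Slc30a4, 2.02 for Slc47a1 and 1.85 for Gadd45a. The ratios of all 5 were smaller than in the full score, where they were 4.60, 4.35, 3.01, 3.0 and 2.78 in the same order.

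The pairs of score genes differed in how often they shared a cell. In 4464 thinned cells, Vgf was found in 27.3% of cells with Mt3 and in 13.8% of cells without it, and Slc30a4 in 24.9% and 13.5%. Gadd45a was found in 49.3% of cells with Slc47a1 and 38.4% of cells without it. Vgf and Slc47a1 were near to independent, with Vgf in 18.4% of cells with Slc47a1 and 17.7% without. Rank correlations across cells, which share depth and library and are given with no test, ran from 0.00789 (Slc47a1 with Vgf) to 0.195 (Mt3 with Vgf), and values this low in sparse counts are no finding.

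Each gene alone was also used to choose the top 10% of cells, compared with all other kept cells. Cells chosen by Mt3 had Vgf at a log2 ratio of 1.71 and Slc30a4 at 1.32, but Slc47a1 at 0.56. Cells chosen by Slc47a1 had Gadd45a at 1.17, Mt3 at 0.81, Slc30a4 at 0.70 and Vgf at 0.33. Spp1 had a log2 ratio of 3.62 in cells chosen by Mt3, 2.51 by Vgf, 2.02 by Gadd45a, 1.91 by Slc30a4 and -0.17 (-0.39 to 0.05) by Slc47a1.

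Other genes that members shared also leaned towards particular score genes. Il11 had log2 ratios of 2.84 in cells chosen by Vgf and 2.10 by Slc30a4, but 0.39 by Gadd45a and 0.33 by Slc47a1. Hmox1 was at 1.29 in cells chosen by Gadd45a and -0.23 in those chosen by Vgf. Slc47a2, the neighbour and relative of Slc47a1, was at 2.05 in cells chosen by Slc47a1 and at 0.52 in those chosen by Mt3. How reads were shared between Slc47a1 and Slc47a2, which are similar in sequence and 541 bases apart, was not tested.

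**Figure D3:**
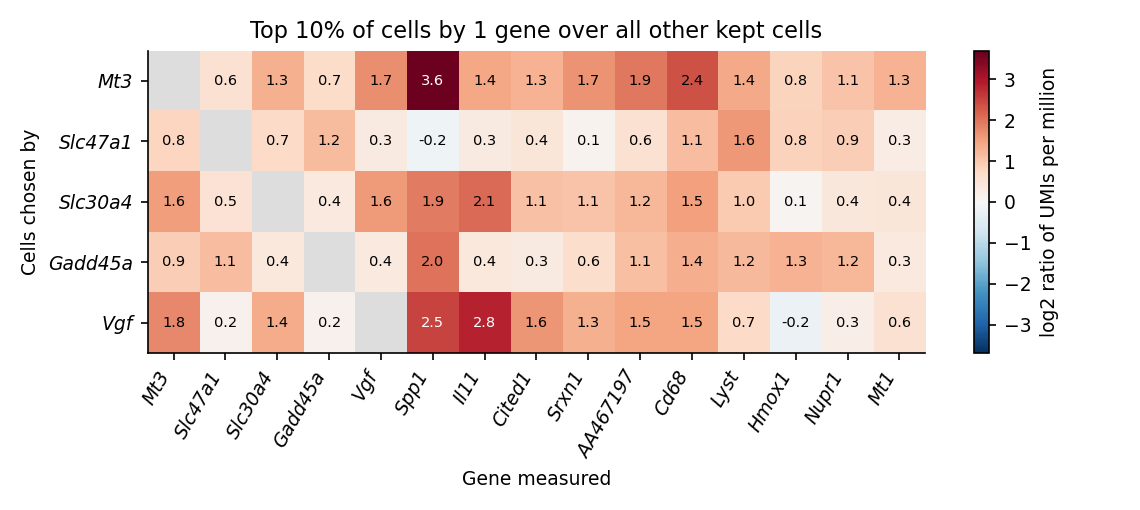
log2 ratio of CPM for the genes named in columns, in the top 10% of cells chosen by 1 score gene (rows) over all other kept adherent cells, with the choosing gene left grey. Spp1 runs from 3.6 in the Mt3 row to -0.2 in the Slc47a1 row, and Hmox1 from 1.3 in the Gadd45a row to -0.2 in the Vgf row.

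The rest of the transcriptome was read from summed UMIs of the 505 members (4275043 UMIs) and of the bottom 50% (23477094 UMIs). Of 8947 genes with at least 200 UMIs over both groups, score genes left out, 777 (8.68%) were over 1.5-fold higher in members and 447 (5%) over 1.5-fold lower. These shares are the background for each group of genes below. Since the minimum counts both groups together, some scarce genes reached it only through the group where they were high, and their counting as measured supports nothing. Among the genes named below these were Cd68, Ppfibp2, Slc47a2 and Ptprn on the higher side and 9230114K14Rik, Gpr155, Plce1, Rasl11a, Adam12, Nkd2, B3gat2, E2f8 and Fgfr3 on the lower side. The median log2 ratio of all measured genes was 0.02. With TMM scaling in place of totals the split turned, to 529 higher and 730 lower genes, and the median gene moved to -0.08.

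Malat1, a long RNA that stays in the nucleus, was at 4741 CPM in members and 2512 in bottom cells (log2 ratio 0.92), and Neat1 at 296 and 141 (1.07). Kcnq1ot1, the last nuclear RNA measured of the list, was at -0.23. When top and bottom cells were taken within 4 equal groups of cells by Malat1, 420 genes were over 1.5-fold higher, of which 388 were among the 777, and 520 were over 1.5-fold lower. The part of nuclear RNA in the other ratios beyond this was not tested.

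Spp1 had the largest ratio of any measured gene outside the score, 326 CPM in members against 17.7 in the bottom 50% (log2 ratio 4.20, 4.04 to 4.36). A few cells carried much of it: 5 members held 42% of the members' Spp1 UMIs, and without them the log2 ratio was 3.44. Spp1 was found in 23.8% of members and 6.22% of bottom cells (22.3% and 3.87% with thinning). Its level followed the score, from 17.7 CPM in the bottom 50% through 70.5 in the 10% to 20% band to 442 in the 1% to 5% band and 1077 in the top 1%.

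Cd68, a lysosomal membrane protein widely used as a macrophage marker, was at 38.6 CPM in members and 4.56 in the bottom 50% (log2 ratio 3.08, 2.72 to 3.45). It was the single measured gene of the 10 immune markers examined, and it reached the minimum of UMIs only through members. Ptprc, Itgam, Aif1, Cd3e, Tyrobp, Adgre1 and C1qa had 0 UMIs in members, which allows up to 3 UMIs for each, while Csf1r had 1 and Cx3cr1 had 6. The summed level of the 10 markers was 40.2 CPM in members and 7.24 in the bottom 50%. In members 38.6 of the 40.2 CPM was Cd68, and in the bottom 50% 4.56 of the 7.24 CPM.

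Il11, a cytokine of the IL-6 family, was at 115 CPM against 15.5 (log2 ratio 2.88), and at 2.36 without the 5 members that held 31.4% of its UMIs. Areg, the EGF receptor ligand amphiregulin, was at 54.0 against 13.2 CPM (2.04), but 5 members held 56.7% of its UMIs and the ratio without them was 0.85. Areg was at 282 CPM in the top 1% of cells and 28.9 in the next band, with 30.8, 27.8 and 26.4 in the further bands and 13.2 in the bottom 50%.

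AA467197 was at 370.1 CPM against 63.4 (log2 ratio 2.55). It was found in 67.1% of members and 30.4% of bottom cells (60.6% and 20.9% with thinning). Cited1, a transcriptional coregulator, was at 776 against 193 CPM (2.00). It was found in 74.7% of members and 51.9% of bottom cells (72.3% and 42.3% with thinning). Srxn1, the sulfiredoxin that repairs oxidised peroxiredoxins, was at 125 against 28.2 CPM (2.15). Lyst, the lysosomal trafficking regulator mutated in beige mice, was at 46.1 against 9.03 CPM (2.35).

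The remaining genes of the 12 with the largest ratios were the predicted gene Gm13889 (log2 ratio 2.44), the serine protease gene Prss56 (2.13), Ppfibp2, a liprin (2.06), and Hebp1, a heme-binding protein (1.89). Without the 5 members richest in each, these 4 genes stayed between 1.70 and 2.10. Ppfibp2 overlaps or touches Cyb5r2, a gene on the other strand with a log2 ratio of 0.46.

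At the other end, the 10 genes with the smallest ratios were scarce in members. Neto1, an auxiliary subunit of glutamate receptors, was at 20.4 CPM in members and 60.8 in the bottom 50% (log2 ratio -1.58, -1.91 to -1.27). Ppp2r2b, a regulatory subunit of protein phosphatase 2A, was at 24.8 against 71.2 CPM (-1.52, -1.82 to -1.24). Plce1, a phospholipase C, was at 3.98 against 17 CPM (-2.09, -2.89 to -1.39). Depdc7 was at -1.89, B3gat2, a glucuronyltransferase, at -1.58, and Nkd2, an inhibitor of Wnt signalling, at -1.77.

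The others were counted with 11 to 16 UMIs in members and have wide intervals. They were 9230114K14Rik (log2 ratio -2.16), Gpr155 (-2.10), the small GTPase gene Rasl11a (-1.86) and the metalloprotease gene Adam12 (-1.86).

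**Figure D4:**
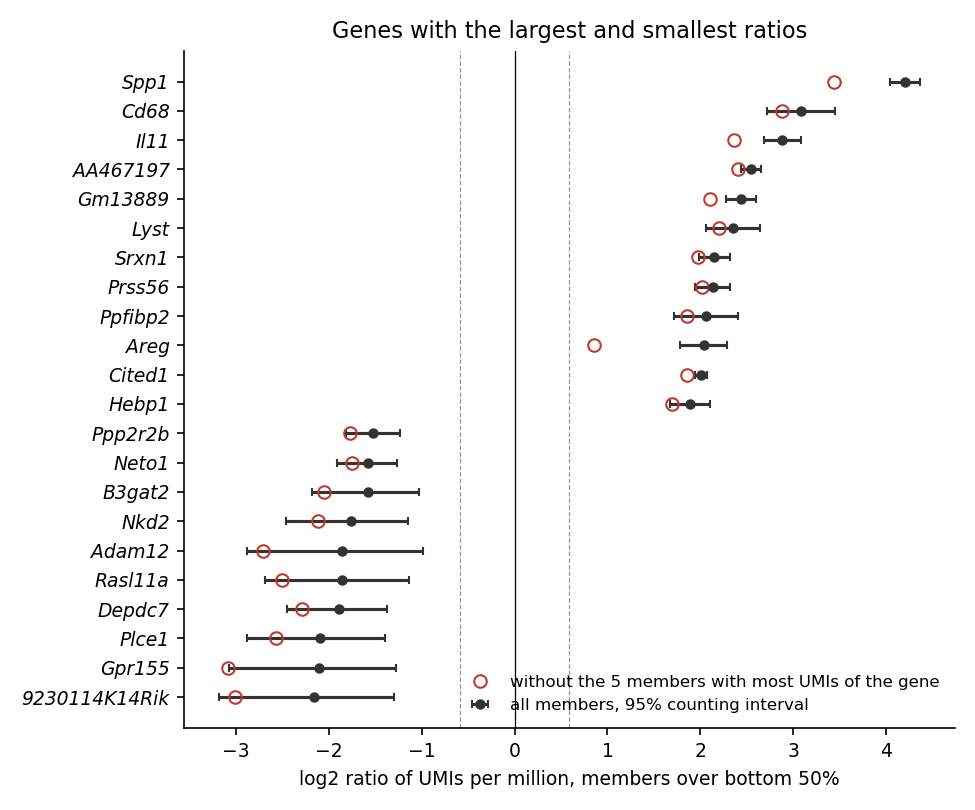
log2 ratio of CPM, members over the bottom 50%, for the 12 largest and 10 smallest genes outside the score, with 95% counting intervals (black) and the value without the 5 members with most UMIs of the gene (open circles), which is lower by construction. Dotted lines mark 1.5-fold, and Areg moves most, from 2.04 to 0.85.

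Gene groups were then read against the background. Metallothioneins beyond Mt3 were higher: Mt1 was at 2856 CPM in members and 1140 in the bottom 50% (log2 ratio 1.32, 1.29 to 1.36), and Mt2 at 1631 and 666 (1.29). Both were found in nearly every cell, so the difference lay in the level per cell. Mt1 was found in 97.6% of members and 98.7% of bottom cells (98.8% and 97.5% with thinning). The epithelial metallothionein Mt4 was counted with 55 and 18 UMIs, under the minimum of 200.

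Zinc transporters showed a narrower pattern. Of the 4 measured exporters beyond Slc30a4, 2 were over 1.5-fold higher, Slc30a7 (log2 ratio 0.68) and Slc30a5 (0.64), both of which load zinc into the secretory pathway, and 0 were lower. Both came within the limit with TMM scaling, against all other kept cells and without the 5 richest members, so that 0 of 4 passed. Of 10 measured zinc importers 0 passed in either direction, with a median log2 ratio of 0.10 (-0.0049 with TMM scaling). Of 9 organic ion transporters 3 were higher and 0 lower, namely Slc47a2 (1.91), Slc22a23 (1.21) and Abcc4 (0.65). Slc47a2 reached the minimum of UMIs only through members, where it was high, so its counting supports nothing. Abcc4 had 75 UMIs in members and was at 0.41 without the 5 richest of them.

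Lysosomal genes were higher as a group. Of 24 measured genes 12 were over 1.5-fold higher and 0 lower, 24 had a log2 ratio above 0, and their median was 0.57. Their summed level was 9185 CPM in members and 5661 in the bottom 50%, and it went from 5661 in the bottom 50% through 7455 in the 10% to 20% band to 11805 in the top 1%. Cd63, a tetraspanin of late endosomes that was picked after its values were seen, was at 3389 against 2049 CPM (log2 ratio 0.73). Gpnmb, a glycoprotein of late endosomes and melanosomes, was at 1982 against 831 CPM (1.25, 1.22 to 1.29). Npc1, the cholesterol exporter of the lysosome, was at 1.32 and the sialidase gene Neu1 at 0.83. The median was 0.50 within groups by Malat1.

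Lamp1, a structural protein of the lysosomal membrane, is shown for its promoter (chr8:13158911-13159160, plus strand, RefSeq, GRCm38.p6), which held 4 E-boxes, the most of the list, and was chosen after its values were seen. Capitals mark the E-box CACGTG, which reads the same on both strands.
Lamp1: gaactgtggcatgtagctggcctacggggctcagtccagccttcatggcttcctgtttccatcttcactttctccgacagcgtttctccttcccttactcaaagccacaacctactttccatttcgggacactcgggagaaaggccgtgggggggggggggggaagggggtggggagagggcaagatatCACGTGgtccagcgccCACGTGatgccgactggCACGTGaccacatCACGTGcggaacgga
Of 20 lysosomal genes with a promoter in the table, 7 (35.0%) held CACGTG, against 6.86% of all promoters, 10.2% of those of measured genes and 9.94% of those of the genes higher in members. Lamp1 itself was at 258 against 214 CPM, a log2 ratio of 0.27 (0.17 to 0.36), below the 1.5-fold limit.

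Cholesterol synthesis and uptake genes had the highest share over 1.5-fold higher of any list with over 4 measured genes. Of 19 measured genes 14 were over 1.5-fold higher and 0 lower, 19 were above 0, and the median log2 ratio was 0.70. Their summed level was 1777 CPM in members and 1015 in the bottom 50%. Mvd, a decarboxylase of the mevalonate pathway, was at 34.9 against 12.1 CPM (log2 ratio 1.53), Hmgcs1, which makes HMG-CoA, at 56.6 against 20.8 (1.45) and the sterol sensor partner Insig1 at 47.7 against 21.4 (1.16). The median was 1.28 in Slc47a1-led members and 0.59 in Mt3-led members. Along the score the sum was highest, 1848 CPM, in the 1% to 5% band and was 1599 in the top 1%.

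Stress genes were higher in part. Of 32 measured genes of the integrated stress response, the program driven by ATF4, 9 were over 1.5-fold higher and 0 lower (median 0.23). Nupr1, a chromatin protein induced by stress, was at 378 against 110.3 CPM (log2 ratio 1.78). It was found in 75.6% of members and 44.0% of bottom cells (68.5% and 32.3% with thinning). Ddit3 (CHOP) was at 668 against 274 CPM (1.29), Atf3 at 1.01 and Vldlr, a lipoprotein receptor, at 0.86. Of 17 chaperones and other genes of the endoplasmic reticulum 4 were higher and 0 lower (median 0.30). They were Hspa5 (BiP) at 1097 against 548 CPM (1.00), Sel1l at 0.96, Xbp1 at 0.72 and Dnajb9 at 0.64. Dnajb9 came within the limit under 9 alternatives. Of 10 heat shock genes 1 passed, Hspa4l (1.16).

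Oxidative stress genes gave a similar picture of few but large members. Of 17 measured NRF2 and glutathione genes 4 were higher and 0 lower (median 0.20). Beside Srxn1 they were Hmox1, at 331 against 123 CPM (log2 ratio 1.42), the glutathione transferase gene Gstm1 (1.03) and the cystine importer gene Slc7a11 (0.65). Slc7a11 came within the limit under 6 alternatives. Of 18 hypoxia and glycolysis genes 4 were higher and 0 lower (median 0.11): the oxidoreductase gene Ero1l (1.16), the glucose transporter genes Slc2a1 (1.14) and Slc2a3 (0.92), and Mxi1 (0.77), an antagonist of MYC.

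Targets of p53, to which Gadd45a belongs, were mixed. Of 17 measured targets beyond Gadd45a 4 were higher and 1 lower (median 0.32). Bbc3 (PUMA), an activator of apoptosis, was at 48.9 against 25.6 CPM (log2 ratio 0.93), Sesn1 at 0.76, the secreted stress factor Gdf15 at 438 against 266 CPM (0.72) and the DNA polymerase gene Polk at 0.71. Phlda3 was lower, at 155 against 244 CPM (-0.66), and the cell cycle inhibitor gene Cdkn1a was at 283 against 234 CPM (0.28), below the limit. Of 14 growth arrest genes 3 were higher and 0 lower, Ccng2 (1.08), Btg1 (0.77) and Cdkn2b (0.62). Polk and Cdkn2b each came within the limit under 7 alternatives, which for Cdkn2b included TMM scaling.

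Most measured cell cycle genes had a log2 ratio below 0, but few passed 1.5-fold. Of 52 measured genes of G2 and M phase 0 were over 1.5-fold higher and 10 lower, 44 were below 0, and the median log2 ratio was -0.32. Their summed level was 7168 CPM in members and 9480 in the bottom 50%, and 4924 in the top 1%. Psrc1 was at -1.27, the survivin gene Birc5 at 306 against 557 CPM (-0.87), Cdc20, an activator of the anaphase-promoting complex, at -0.83 and the kinesin gene Cenpe at -0.81. Of 42 genes of G1 and S phase 0 were higher and 4 lower (median -0.26). Among the lower were E2f8 (-1.02), the ribonucleotide reductase gene Rrm2 (-0.82) and Exo1 (-0.68). E2f8 reached the minimum of UMIs only through bottom cells, where it was high, so its counting supports nothing.

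Top and bottom cells were also taken anew within 4 equal groups of cells by the G2 and M sum. This gave 504 top and 2527 bottom cells, which are not the same sets as the members and bottom cells above. Of 590 genes over 1.5-fold higher, 536 were also higher in members. In these cells the median of the G2 and M list was 0.12, as choosing within such groups brings about. The cholesterol list was at 0.69 and the lysosomal list at 0.50. The G2 and M median was -0.83 in Gadd45a-led members and 0.12 in Vgf-led members.

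Genes of signalling downstream of growth factors gave no common direction. Of 11 measured feedback genes of the ERK pathway 3 were higher and 2 lower (median -0.15), with Spred2 (0.86), Fosl1 (0.86) and Spry4 (0.71) above the limit and Spry1 (-1.27) below it, although Spry1, Spry4 and Spred2 all encode inhibitors of the pathway. Of 16 immediate early genes 3 were higher, Klf6 (1.29), Atf3 (1.01) and Dusp1 (0.72), and 1 lower, Nr4a1 (-0.92). Of 6 targets of CREB, a factor that acts on Vgf, 0 were higher and 1 was lower. Genes of the secretory granule, where Vgf is stored, were counted for 4 of 13, of which 3 were higher and 0 lower: Ptprn (1.84), Pcsk1n (0.64) and Cpe (0.60). With TMM scaling Pcsk1n and Cpe came within the limit and 1 of 4 passed. That gene was Ptprn, which reached the minimum of UMIs only through members, where it was high, so its passing supports nothing.

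Some markers of glial lineages were lower in members. Of 7 measured oligodendrocyte precursor genes 0 were higher and 4 lower (median log2 ratio -0.61). Olig1, a lineage transcription factor, was at 77.0 against 168 CPM (-1.12, -1.29 to -0.96). It was found in 38.8% of members and 65.5% of bottom cells (29.6% and 51.2% with thinning). Lhfpl3 was at -1.10, Olig2 at 44.4 against 82.4 CPM (-0.89) and the NG2 gene Cspg4 at -0.61. Cspg4 came within the limit under 9 alternatives. The summed level of the list was 357 CPM in members and 540 in the bottom 50%.

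Astrocyte and stem cell markers went the same way. Of 7 astrocyte genes 0 were higher and 3 lower (median -0.48). The 3 lower were Fgfr3 (-1.21), the glutamate transporter gene Slc1a3 at 258 against 410 CPM (-0.67) and S100b (-0.62). Fgfr3 reached the minimum of UMIs only through bottom cells, where it was high, so its counting supports nothing. Of 7 neural stem cell genes 0 were higher and 3 lower (median -0.30), Fabp7 (-1.19), Notch1 (-0.87) and the nestin gene Nes at 64.8 against 118 CPM (-0.86). Of 2 measured neuronal genes 0 passed, and of the endothelial markers 0 reached 200 UMIs. Over the alternatives for members against bottom cells, the medians ran from -0.97 to -0.28 for oligodendrocyte precursors and from -0.72 to -0.20 for astrocytes. The pattern was not shared by cells high in Slc47a1: the oligodendrocyte precursor median was -0.04 in Slc47a1-led members and -0.60 in Mt3-led members. In cells chosen by Slc47a1 alone it was 0.09 and the astrocyte median 0.19, against -0.30 and -0.52 in cells chosen by Mt3 alone.

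Interferon genes had no common direction. Of 17 measured genes 0 were higher and 3 lower, 11 were below 0 and 6 above, and the median log2 ratio was -0.18. The 3 lower genes were Ifit1 (-0.81), Ifit3 (-0.73) and Isg15 at 1377 against 2148 CPM (-0.64). The chemokine gene Cxcl10 was at 156 against 303 CPM (-0.95), though 5 members held 37.6% of its UMIs there. Over the alternatives it ran from -1.61 to -0.34, and under 4 of them it came within the limit. Csf1 was at 0.72, but the gene had 52 UMIs in members, 59.6% of them in 5 cells, and its log2 ratio without these was -0.57. Of contractile, matrix and YAP target genes, 6, 7 and 4 were measured, and 1, 1 and 0 were higher, with 0 lower. The higher genes were Tpm2 (0.72) and Col6a2 (0.65), which came within the limit under 2 and 7 alternatives.

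**Figure D5:**
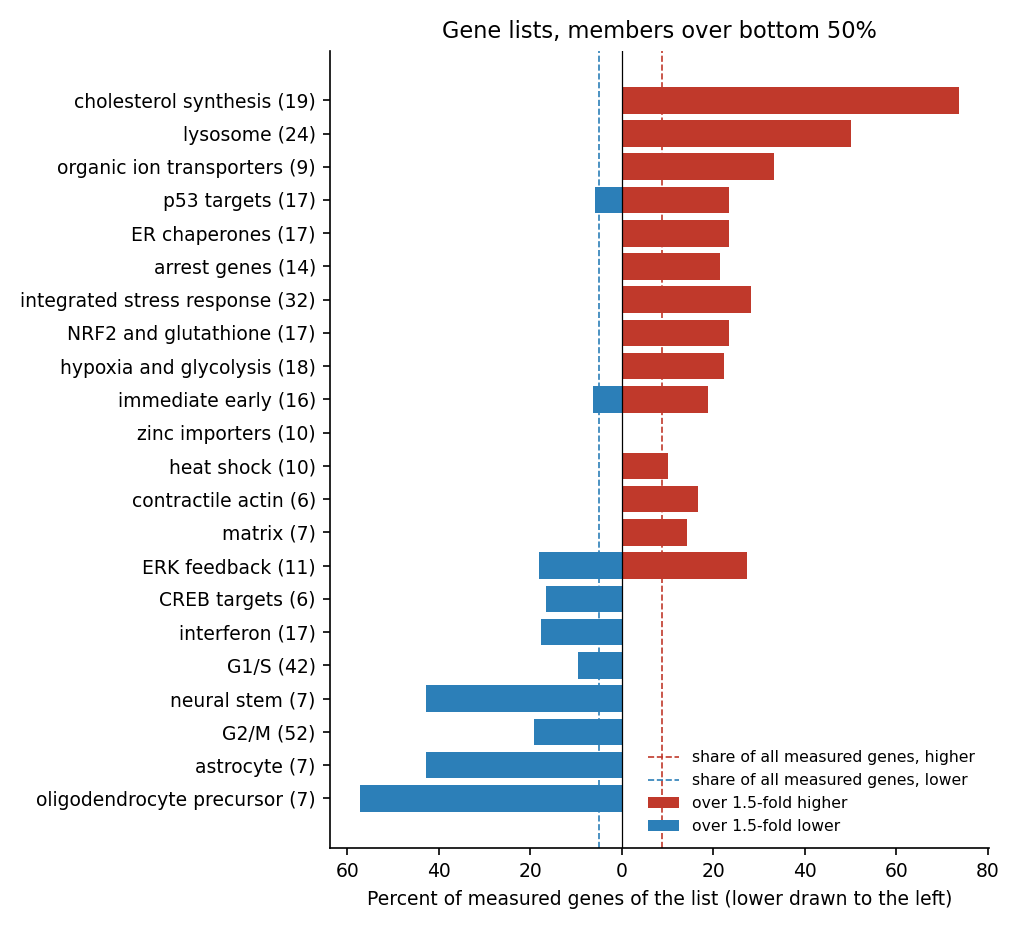
Percent of the measured genes of each list (number in brackets) that were over 1.5-fold higher (red, to the right) or lower (blue, to the left) in members than in the bottom 50%, with lists of under 6 measured genes and the markers of other adherent states left out. Dashed lines mark the share of all measured genes, 8.68% higher and 5% lower. Cholesterol synthesis (14 of 19) and lysosome (12 of 24) reach furthest to the right, and oligodendrocyte precursor genes (4 of 7) furthest to the left.

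Marker genes of other states of the adherent culture did not all follow the score. Spp1 and Cited1, already described, were higher. Phlda2 was level, at 369 against 359 CPM (log2 ratio 0.04, -0.04 to 0.12). Tex14 (-0.70), the surface antigen gene Ly6a (-0.81) and the cartilage collagen gene Col2a1 (-0.89) were lower. The keratin gene Krt8 had 52 UMIs in members, 50.0% of them in 5 cells, and is not counted among measured genes.

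Members gathered in the space of the other genes. With the 5 score genes removed before the variable genes were chosen, 29.1% of the 30 nearest neighbours of a member were members, against 9.0% for the cells between and 2.41% for bottom cells. Of 10 clusters, cluster 4 (585 cells, median 6545 UMIs) held 215 members, which is 36.8% of its cells (32.8% to 40.8%) and 42.6% of all members. Cluster 9 was as rich in members (17 of 48 cells), but with a median of 2623.5 UMIs its cells were shallow. Clusters 5 and 8 were poor in them, with 5 of 535 and 3 of 225 cells. Every cluster held both members and bottom cells, and at a lower resolution the cluster with most members was 19.4% members. Clusters were formed from the same cells, so these shares are a description.

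The same score was read in neurosphere cells, where the 5 genes stood at other levels. Over all kept cells of each library, Vgf was at 1.22 CPM in neurosphere cells and 68.6 in adherent cells (log2 ratio -5.82), Mt3 at 10.9 and 164 (-3.91) and Gadd45a at 26.6 and 148 (-2.47). Slc47a1 went the other way, at 342 in neurosphere cells and 144 in adherent cells (1.25). Slc30a4 was at 40.6 and 46.2 (-0.19, -0.27 to -0.10), and at 0.03 with mitochondrial and ribosomal UMIs in the total. Each culture was 1 library, so culture and library cannot be told apart.

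Over the adherent limit of 12.94 per 10000 lay 146 of 4276 neurosphere cells (3.41%, 2.89% to 4.0%). After thinning to 5000 UMIs it was 206 of 4196 neurosphere cells (4.91%) and 461 of 4464 adherent cells (10.3%). In the top 10% of neurosphere cells by the same score Slc47a1 gave 81.8% of the score UMIs, against 19.4% in adherent members. It was the most counted of the 5 genes in the bottom 50% of neurosphere cells too, at 166 CPM, where Slc30a4 came next at 27.6.

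In that neurosphere choice, 428 cells against the bottom 2138, 2041 of 10265 measured genes (19.9%) were over 1.5-fold higher and 901 (8.78%) lower. Of the 777 genes higher in adherent members 707 were measured there, and 313 of these (44.3%) were also higher, against the 19.9% background. Of the 447 lower genes 411 were measured and 112 (27.3%) were also lower, against 8.78%, while 57 were over 1.5-fold higher there and 239 shared the sign. Of the 707 higher genes 637 shared the sign and 6 were over 1.5-fold lower. The choices come from separate libraries but use the same 5 genes, and no test was made.

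In the neurosphere choice the lysosomal list had a median log2 ratio of 0.43, with 4 of 26 genes over 1.5-fold higher, a share below the 19.9% of all genes measured there. The medians were -0.88 for the G2 and M list and -0.88 for the G1 and S list. The cholesterol list was at 0.16, the Mt1 and Mt2 median at 0.02 and the integrated stress list at -0.21. Malat1 was at 1.62 there. The oligodendrocyte precursor list, at -0.61 in adherent members, was at 0.38, and the interferon list, at -0.18, was at 0.64. Of these lists 4 of 10 and 10 of 17 genes were over 1.5-fold higher there and 0 lower. Of all genes measured there 19.9% were higher and 8.78% lower.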

How the data were processed

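The authors deposited 1 matrix of raw UMI counts per library, 32285 genes by called cells, made with Cell Ranger 7.0.1 on mm10 per the submitters' processing notes, and not normalized. The libraries held 68531063 (adherent) and 82832873 (neurosphere) UMIs. Whether reads in introns were counted is not given in the sources used here.

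From these counts, 13 mitochondrial and 101 ribosomal protein genes were removed. Adherent cells with at least 1000 UMIs and 1250 genes and neurosphere cells with at least 1000 UMIs and 2250 genes were kept, 5051 and 4276 cells with medians of 8260 and 13199 UMIs. With the adherent cell filter applied before gene removal, 5073 cells were kept. No doublet caller was run.

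UMIs were summed over the cells of a group and divided by the group's total (CPM). Ratios carry exact conditional 95% intervals, levels Poisson intervals and shares Clopper-Pearson intervals. They cover counting error only. A gene was counted as higher or lower past 1.5-fold if it had at least 200 UMIs over both groups. Named genes were the 5 score genes, the 12 genes furthest up and the 10 furthest down by log2 ratio of CPM + 1, up to 4 genes past 1.5-fold from each of 32 lists, and all markers of other adherent states. Further genes named (Lamp1, Cd63, Cdkn1a, Phlda3, Mt4, Kcnq1ot1 and the immune markers) were chosen after their values were seen. Some genes that this rule names are not reported here. Members and lists were chosen with earlier results of these data known. The tools were Python 3.11.15, numpy 2.4.6, scipy 1.17.1, pandas 2.3.3, R 4.3.3, Seurat 5.3.0 (2000 variable genes, 17 principal components, resolution 1.0) and edgeR 4.0.16 (for TMM factors only). Gene positions came from GENCODE M21, in which 32158 of the gene IDs were found. Scripts were tested on simulated data. Alternatives changed the share of cells chosen, the comparison cells, the scaling, the gene and cell filters, the depth, the weights of the 5 genes, the UMIs used for the choice, and the number of neighbours and resolution. Comparisons within 4 equal groups of cells by Malat1 or by G2 and M level, without shared barcodes, without the 5 richest members of a gene, by single genes, by leading gene and in the neurosphere library were chosen after seeing the data.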

Additional observations from a re-analysis of the deposited data

Results flagged for a closer look

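Of the named genes over 1.5-fold lower in adherent members, 11 were over 1.5-fold higher in the neurosphere cells chosen by the same score. The difference between the libraries was not tested. Over all genes, 57 of the 411 lower genes measured there were over 1.5-fold higher. This share was below the 19.9% of all genes measured there. In the neurosphere choice the log2 ratio was 2.35 for Cxcl10, 1.71 for Ppp2r2b, 1.31 for Lhfpl3, 1.30 for Notch1, 1.28 for Col2a1, 1.23 for S100b, 0.85 for Ifit1, 0.84 for Plce1, 0.73 for Neto1, 0.68 for Adam12 and 0.66 for Ifit3. Plce1 had 201 UMIs in that choice and reached the minimum of UMIs only through the top cells, where it was high. Its interval was 0.28 to 1.38, and its counting there supports nothing. Slc47a1 gave 81.8% of the score in the neurosphere choice and 19.4% in adherent members.

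The 713 adherent cells that the filter left out, with 392008 UMIs in all, also held score genes. Slc47a1 was at 508 CPM (440 to 583) in them and Gadd45a at 219 (175 to 271), against 144 and 148 in all kept adherent cells. Vgf was at 96.9 CPM (68.6 to 133) and Mt3 at 112 (81.6 to 151). These cells did not pass the filter and are not counted as members.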

How the results depend on the processing

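No paired analysis was possible because each culture was 1 library. Over the alternatives, 101 named genes gave 2020 values, of which 7 had another sign than the reported value, for Csf1 (-0.17 after thinning and -0.57 without the 5 richest members) and for Phlda2, which was near 0 throughout (-0.07 to 0.19). Of 100 named genes past 1.5-fold, 37 (22 higher and 15 lower) came within that limit under at least 1 alternative, most often Abcc4, Cpe, Cspg4 and Dnajb9 (9 settings each). The 28 list medians gave 476 values, of which 16 in 10 lists had another sign. These were G2 and M within groups of cells by that level (0.12), YAP targets within groups of cells by Malat1 (-0.0040) and the lists of zinc importers, zinc exporters, organic ion transporters, chemokines, heat shock, immediate early, contractile and CREB target genes, whose medians ran from -0.51 to 0.75. The 777 higher genes became 445 after thinning, 416 with at least 500 UMIs per gene, 7373 with at least 1, 158 at 2-fold, 502 with the choice made on 1 part of the UMIs and 420 within groups of cells by Malat1, where 520 genes were lower. The 447 lower genes became 718 for the top 5%, 265 for the top 20%, 730 with TMM, 263 with at least 500 UMIs, 1574 with at least 1 and 67 at 2-fold. The G1 and S median was -0.42 for the top 5%, -0.20 for the top 20% and against all other cells, -0.18 with equal weights, -0.36 with TMM and -0.14 within groups of cells by G2 and M. The G2 and M median was -0.22 within groups of cells by UMIs and -0.47 by Malat1, the lysosomal median 0.74 for the top 5% and the integrated stress median 0.13 with TMM. For score genes chosen by the other 4, thinning gave 2.21 for Mt3, 1.85 for Slc30a4 and 1.88 for Vgf. Equal weights gave 2.53 for Mt3, 0.97 for Slc47a1, 0.99 for Gadd45a and 2.36 for Vgf, and the top 5% gave 2.53 for Mt3. Members among neighbours were 31.1% with 15 neighbours and with the score genes kept, and the cluster with most members was 19.4% members at resolution 0.8. The neurosphere share over the limit was 4.91% after thinning and 6.15% with mitochondrial and ribosomal UMIs in the total. Log2 ratios of neurosphere over adherent cells were 1.38 for Slc47a1 and -2.38 for Gadd45a after thinning, and with those UMIs in the total -3.69 for Mt3, 1.47 for Slc47a1, 0.032 for Slc30a4 and -2.26 for Gadd45a. Apart from fewer cells, molecules or genes in the thinned, split and filtered settings, the cause was not tested.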
